A study of Mus musculus with 45 samples.

Results

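The genes described here are 8 genes of neuronal differentiation, Neurog2, Neurod1, Nhlh1, Dcx, Tubb3, Map2, Stmn2 and Elavl3, chosen by symbol from the 35372 features counted in every library. Each was found once. They were followed in 45 strand-specific RNA-seq libraries of wild-type male E14tg2a embryonic stem cells (ESCs), a mouse line of 129/Ola background, as the cells left the naive state in 3 differentiation courses. The labels call the courses EB (embryoid bodies), EpiSC and Neural.

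All cells carried the same wild-type genotype and came from 1 line. Before differentiation they were kept either in 2iL, a serum-free medium with inhibitors of Mek and Gsk3 plus LIF, or in SL, which is serum plus LIF. EBs were formed in suspension in serum without LIF. The EpiSC course was an adherent culture in N2B27 with Fgf2 and Activin A (FA), and the Neural course was adherent culture in N2B27 alone, without serum or added factors. Days 0, 1, 1.5, 2, 2.5, 3, 5 and 7 were sampled, with 1 library for each medium, course and day. At day 0 there were 3 libraries from 2iL and 1 from SL, which stands for all SL courses. Day 5 of the EpiSC course from 2iL was not analysed here.

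In the embryonic neural tube, neurons arise when progenitors switch on proneural transcription factors of the basic helix-loop-helix (bHLH) class, which bind E-box motifs next to neuronal genes and push the cell out of division. Neurog2 is a proneural factor of this kind. Neurod1 and Nhlh1 act further along the same path, in cells that are becoming neurons. The newborn neuron then builds a microtubule skeleton with the β-tubulin Tubb3, the migration protein Dcx, the dendritic microtubule protein Map2 and the tubulin-binding growth protein Stmn2, and processes its RNA with neuronal RNA-binding proteins such as Elavl3.

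Levels are given as CPM, the counts of a gene scaled to a library total of 1000000. Libraries held 13093226 to 39804240 counts, with a median of 18222720, and the 8 libraries of the 2iL EB course (median 34490692) were deeper than most of the other 37 (median 17297450). A count of 3 reads, taken as the floor of detection, was between 0.0754 and 0.229 CPM, and intervals and floors cover counting error only. Of the 6 neural progenitor markers examined (Sox1, Pax6, Nes, Fabp7, Msi1 and Hes5), all were detected in each Neural library of days 5 and 7, with a summed level of 323 to 745 CPM against 22.5 to 62.6 CPM at day 0. Since the libraries are bulk samples, fewer cells of a type and less RNA per cell cannot be told apart in any level given here.

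The bHLH factors were examined first. On GRCm38, Neurog2 (ENSMUSG00000027967) lies on the positive strand of chromosome 3 from 127633135 to 127635631. No read of it was found in the 4 libraries of day 0. In the Neural course from 2iL days 3, 5 and 7 gave 0.231, 8.43 and 11.8 CPM. From SL the corresponding levels were 0.379, 4.24 and 3.61 CPM. All 4 Neural libraries of days 5 and 7 were therefore above every other library, the next being EpiSC from 2iL at day 7 with 2.27 CPM. The EB libraries of days 5 and 7 held 0 and 0.293 CPM from 2iL and 0.0544 and 0.397 CPM from SL, and the SL EpiSC libraries held 0.0690 and 0.0525 CPM, which is at most 1 read each.

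Nhlh1 (ENSMUSG00000051251, negative strand of chromosome 1, 172052292 to 172057573) followed almost the same course from day 3 on, but was read at day 0. The day 0 libraries held 13 reads of it from 2iL (0.133 to 0.233 CPM) and 2 from SL, and the 6 Neural libraries of days 1 to 2 held 2. Its Neural levels on days 3, 5 and 7 were 0.0579, 3.44 and 10.2 CPM in the culture from 2iL. The culture from SL held 0.505, 2.34 and 6.11 CPM. Day 7 was above day 5 in both, by 2.95-fold from 2iL (95% exact interval of the 2 counts 2.19 to 4.03) and by 2.61-fold from SL (1.78 to 3.88), whereas Neurog2 differed by 1.40-fold (1.12 to 1.74) and 0.852-fold (0.582 to 1.24) over the same days. Outside the Neural course, Nhlh1 reached 2.69 CPM in EpiSC from 2iL at day 7 and stayed at or below 0.496 CPM in the EB libraries of days 5 and 7. Across all 45 libraries, Neurog2 and Nhlh1 had the highest correlation of any pair of the 8 genes (Pearson's r = 0.96 on log2(CPM + 0.5), given as a description, since libraries of 1 course share their culture and many hold no read of either gene).

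Neurod1 (ENSMUSG00000034701, negative strand of chromosome 2, 79452521 to 79456751) did not follow this pattern. Its highest level was in undifferentiated SL ESCs, at 20.8 CPM (95% Wilson interval 18.8 to 23.0), while the 3 day 0 libraries from 2iL held 0.922, 0.266 and 0.233 CPM. This contrast of 1 library with 3 has no replicate on the SL side. In EBs from 2iL, Neurod1 stood at 6.17, 6.70 and 6.69 CPM on days 2, 2.5 and 3, and in EBs from SL between 5.15 and 6.55 CPM from day 1 to day 2.5. In the Neural course it was at 1.10 CPM from 2iL and 1.51 CPM from SL at day 3, and at 4.73 and 5.30 CPM at day 7. The Neural range at days 5 and 7 (2.34 to 5.30 CPM) lay across those of EB (1.69 to 4.57) and EpiSC (3.10 to 3.79). Neurod1 shares 201 exon bases on the same strand with Cerkl, which was itself at 0.203 to 4.33 CPM, so the counts of Neurod1 are uncertain by what the shared stretch holds.

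**Figure D1:**
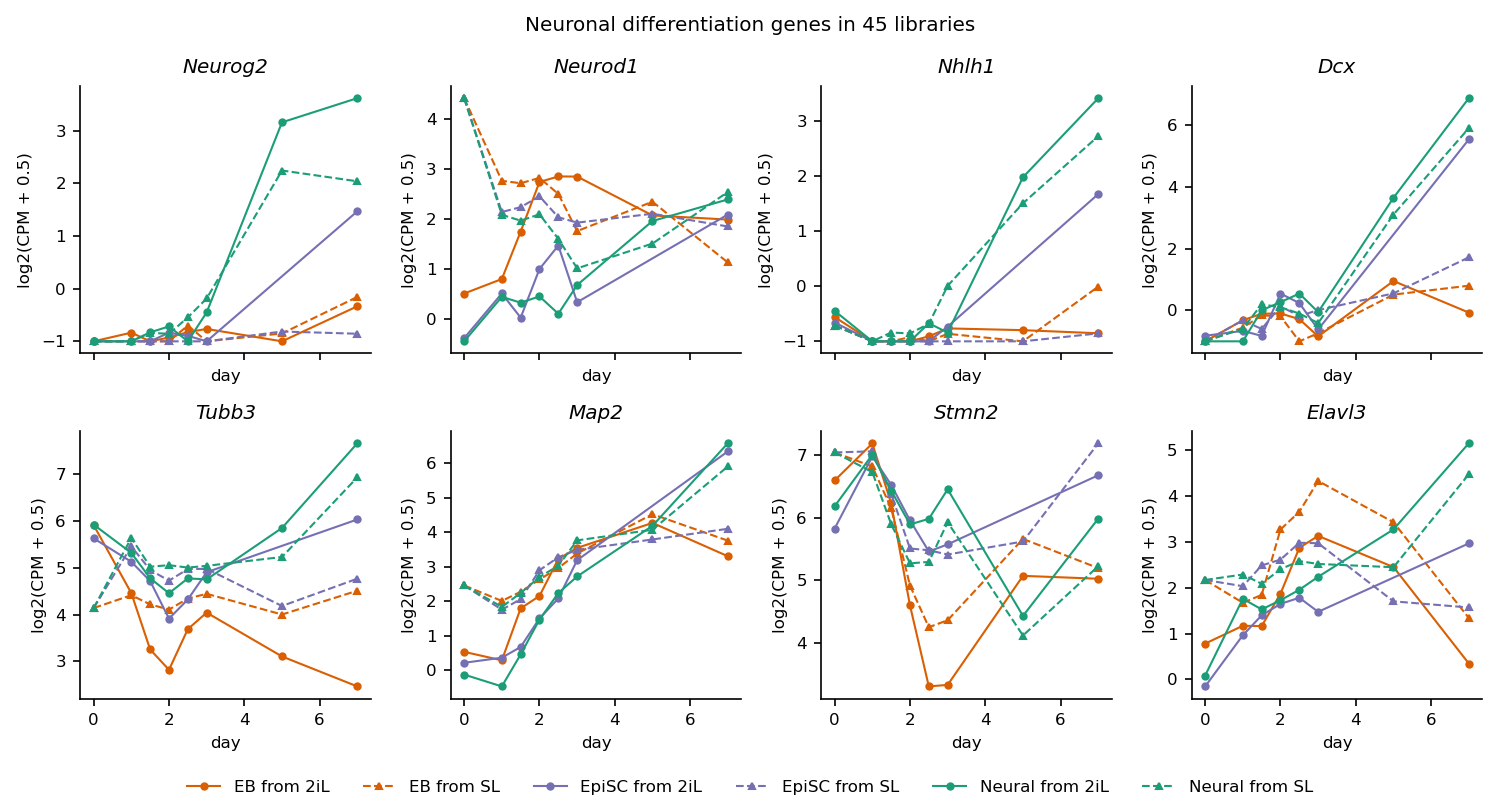
Level of each gene as log2(CPM + 0.5) against the day of differentiation, with 1 point per library, colours for the 3 courses, solid lines and circles for cultures from 2iL and dashed lines and triangles for those from SL. The single SL library of day 0 starts all 3 SL lines. Neurog2, Nhlh1 and Dcx are near the bottom of the axis until day 3 and highest in the Neural course at days 5 and 7, Stmn2 is high from day 0, and Elavl3 peaks in EBs at day 3.

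To show the sequences that lie before the genes that move together, the stretch upstream of the transcription start was read from the RefSeq promoter table (GRCm38.p6), in which 7 of the 8 genes had an entry. Stmn2 had none. The E-box was searched as CANNTG, which reads the same on both strands, and is printed in capitals. Among the 8 starts of the 7 genes, it was found in the 250 bases before the start of Nhlh1 (CAGATG at -203, counted from the start), Neurod1 (CATATG at -242) and Elavl3 (CACCTG at -117 and CAGCTG at -43). It was not found in the windows of Neurog2, Dcx, Tubb3 or Map2. Of the 32851 promoter windows of this length, 66.2% held at least 1 CANNTG, 13.0% held CAGCTG and 14.4% held CAGATG or its reverse complement CATCTG, and a match describes the letters only. Neurog2 and Nhlh1 are shown because they appear together in the Neural course, the first without and the second with an E-box in its window, and Elavl3 because it is the only one of the 7 with CAGCTG. The 3 stretches are chr3:127632886-127633134 on the positive strand, chr1:172057597-172057846 on the negative strand and chr9:22052024-22052273 on the negative strand, each written 5′ to 3′ along the gene.
Neurog2: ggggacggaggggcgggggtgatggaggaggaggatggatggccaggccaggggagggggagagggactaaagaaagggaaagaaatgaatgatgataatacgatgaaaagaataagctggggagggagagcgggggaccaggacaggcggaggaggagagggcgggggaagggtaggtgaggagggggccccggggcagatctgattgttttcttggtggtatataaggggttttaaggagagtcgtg
Nhlh1: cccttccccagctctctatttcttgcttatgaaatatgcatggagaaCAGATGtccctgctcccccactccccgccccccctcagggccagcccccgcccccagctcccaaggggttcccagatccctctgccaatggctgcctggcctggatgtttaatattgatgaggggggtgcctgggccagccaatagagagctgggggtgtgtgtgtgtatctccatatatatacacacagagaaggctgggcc
Elavl3: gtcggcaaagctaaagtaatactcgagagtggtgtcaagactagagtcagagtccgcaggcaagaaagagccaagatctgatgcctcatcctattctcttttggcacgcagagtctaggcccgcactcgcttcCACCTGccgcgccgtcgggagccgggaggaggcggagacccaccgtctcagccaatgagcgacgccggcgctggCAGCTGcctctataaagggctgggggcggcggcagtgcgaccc

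Among the cytoskeletal genes, Dcx (ENSMUSG00000031285, negative strand of chromosome X, 143855842 to 143933311) started from almost nothing. The 4 day 0 libraries held 1 read in all. In the Neural course from 2iL Dcx had 0.463, 12.0 and 116 CPM on days 3, 5 and 7. The culture from SL had 0.252, 8.08 and 59.0 CPM. Between days 3 and 7 this is a ratio of 251 (95% exact interval 127 to 581) from 2iL and of 234 (90.9 to 860) from SL. Nhlh1 had a ratio of 176 over the same days from 2iL, which rests on 1 read at day 3 (31.1 to 6971). In EBs of days 5 and 7, Dcx held 1.43 and 0.453 CPM from 2iL and 0.925 and 1.24 CPM from SL. The EpiSC course was split by medium, with 45.7 CPM at day 7 from 2iL but 0.966 and 2.78 CPM at days 5 and 7 from SL.

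Tubb3 (ENSMUSG00000062380, positive strand of chromosome 8, 123411424 to 123422015) differed from Dcx in that ESCs already expressed it. Day 0 libraries from 2iL held 59.5, 48.8 and 59.9 CPM, and the one from SL held 17.1 CPM. At day 2 the 6 cultures lay between 6.57 and 32.7 CPM. The Neural levels at days 5 and 7 were 57.0 and 201 CPM from 2iL and 37.0 and 121 CPM from SL. EBs were at 8.11 and 5.03 CPM from 2iL and at 15.5 and 22.3 CPM from SL, so that no EB library reached the lowest Neural one. The Neural day 7 level from 2iL was 39.9 times that of EBs from 2iL (34.4 to 46.4), against a ratio of 5.44 (4.90 to 6.05) from SL. Whether reads that match more than 1 β-tubulin gene were counted is not given in the sources used here.

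Map2 (ENSMUSG00000015222, positive strand of chromosome 1, 66175273 to 66442583) was present in every course by day 3, at 11.2 and 9.92 CPM in EBs, 8.62 and 10.7 CPM in EpiSC cultures and 6.08 and 13.1 CPM in Neural cultures from 2iL and SL. Day 5 did not separate the courses either. EBs held 18.7 and 22.4 CPM, the SL EpiSC culture 13.3 CPM and Neural cultures 17.7 and 16.3 CPM. At day 7 the Neural cultures held 94.5 and 59.2 CPM and EBs 9.37 and 13.0 CPM, and the EpiSC culture from 2iL was at 80.2 CPM while that from SL was at 16.6 CPM.

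Stmn2 (ENSMUSG00000027500, positive strand of chromosome 3, 8509360 to 8561606) had its highest levels early in every culture except the EpiSC one from SL. It was high in ESCs, with 96.1, 56.3 and 72.2 CPM from 2iL and 131 CPM from SL, and was between 105 and 145 CPM in all 6 cultures at day 1. The lowest EB values were those of days 2.5 and 3, at 9.40 and 9.57 CPM from 2iL and 18.6 and 20.1 CPM from SL. The Neural cultures had their lowest values at day 5, at 21.1 and 16.9 CPM, and stood at 62.9 and 37.0 CPM at day 7. Of all libraries from day 5 on, the highest were the EpiSC ones of day 7, with 102 CPM from 2iL and 145 CPM from SL, so Stmn2 alone of the 8 genes had its highest late level outside the Neural course.

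Elavl3 (ENSMUSG00000003410, negative strand of chromosome 9, 22015005 to 22052023) had separate maxima in EBs and in Neural cultures. In EBs from 2iL days 2, 3, 5 and 7 gave 3.16, 8.28, 4.97 and 0.772 CPM. From SL the values on these days were 9.17, 19.7, 10.3 and 2.03 CPM, a higher curve of the same shape. Neural cultures held 4.23 and 5.24 CPM at day 3, 9.18 and 4.96 CPM at day 5, and 35.2 and 21.8 CPM at day 7 from 2iL and SL. At day 3 the EB libraries were thus above the Neural ones, and at day 7 the order was the opposite in both media.

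Per kilobase of exon, which allows genes to be set side by side, the order at Neural day 7 from 2iL was Tubb3 (107 CPM per kb), Stmn2 (11.2), Dcx (9.17), Map2 (5.75), Neurog2 (5.29), Elavl3 (5.10), Nhlh1 (4.12) and Neurod1 (1.73). In SL the first 5 were Tubb3 (64.8), Stmn2 (6.60), Dcx (4.66), Map2 (3.60) and Elavl3 (3.16), and the last was Neurog2 (1.62). Each culture has 1 library of that day, so neighbours in this order have no spread to be judged by. In undifferentiated cells from SL, by comparison, Stmn2 led with 23.4 CPM per kb, followed by Tubb3 (9.16) and Neurod1 (7.62), and the other 5 genes were below 1.

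The change over time was tested within each course as the mean of days 5 and 7 against the mean of days 1, 1.5 and 2, with edgeR's quasi-likelihood test over 41 libraries and starting medium as a term. In the Neural course, 6 of the 8 genes rose and 1 fell (background: 70.9% of 16946 genes changed, 36.9% rose and 34% fell). Dcx rose by 6.45 ± 0.55 (log2, SE; adjusted p = 6.7e-10), and Map2 by 3.95 ± 0.49 (adjusted p = 1.9e-07). Elavl3 rose by 2.10 ± 0.35 (adjusted p = 1.5e-05) and Tubb3 by 1.39 ± 0.30 (adjusted p = 0.000228). For the bHLH factors the early libraries hold almost nothing. Neurog2 rose by 7.63 ± 0.78 (adjusted p = 7.9e-08) and Nhlh1 by 7.91 ± 1.01 (adjusted p = 2.9e-06). In pooled reads, Neurog2 had 476 in the 4 late and 5 in the 6 early libraries, a ratio of 159 (95% exact interval 67.8 to 493.3). Nhlh1 had 361 and 2 reads, a ratio of 302 (83.1 to 2506). These 2 intervals cover counting error and leave out the spread between libraries. Stmn2 fell by 1.36 ± 0.25 (adjusted p = 4.1e-05). Neurod1 differed by 0.95 ± 0.52 (adjusted p = 0.107). For 5 of the 8 genes (Dcx, Map2, Elavl3, Neurog2 and Nhlh1) every late Neural library was above every early one, as for 27.5% of all genes tested.

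The other courses showed fewer changes among these genes. In EBs, Map2 rose by 2.17 ± 0.46 (adjusted p = 0.000225), Dcx rose by 1.45 ± 0.57 (adjusted p = 0.0294) and Stmn2 fell by 0.83 ± 0.24 on the log2 scale (adjusted p = 0.00436), so 3 of 8 changed, against 67.6% of all genes. The rise of Dcx was to no more than 1.43 CPM, and it did not pass without the 2iL EB library of day 5 (1.41, adjusted p = 0.0828) or the SL EB library of day 7 (0.81, adjusted p = 0.256). Nhlh1 had a difference of 3.71 ± 1.61 in EBs (adjusted p = 0.0519), and it passed in 5 of 9 alternatives, among them without the 2iL EB library of day 7 (4.40, adjusted p = 0.0212) or the SL EB library of day 5 (3.92, adjusted p = 0.0495), at levels of at most 0.496 CPM. The sign of Stmn2 depended on the early days taken, since against days 2.5 and 3 it was higher at days 5 and 7 by 1.36 (adjusted p = 0.000257), and Map2 then differed by 0.63 (adjusted p = 0.302). Elavl3 was the opposite case, with a difference of -0.09 ± 0.37 against days 1 to 2 (adjusted p = 0.844) and of -1.87 against days 2.5 and 3 (adjusted p = 0.000546).

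In the EpiSC course, Dcx rose by 4.12 ± 0.76 (adjusted p = 7.8e-05) and Map2 by 3.23 ± 0.51 (adjusted p = 1.4e-05), which is 2 of 8 genes against 57.2% of all changed and 30.4% risen. Without the 2iL library of day 7 the differences were 2.68 (adjusted p = 0.000494) and 2.14 (adjusted p = 0.000633). The SL EpiSC library of day 5 is the only one of that course and day, so leaving it out compares day 7 alone with days 1 to 2. The differences were then 6.08 (adjusted p = 2.8e-08) and 4.34 (adjusted p = 5.5e-07). Nhlh1 had no read in the 6 early EpiSC libraries and 52 reads in the 3 late ones, of which 51 were in the 2iL library, and with a term for each day its standard error could not be estimated. Nhlh1 passed in 2 of 9 alternatives, without the SL EpiSC library of day 5, again as day 7 alone (adjusted p = 0.000412), and with days grouped into stages, which was chosen after seeing the data (adjusted p = 0.000194). Neurog2 differed by 4.87 ± 2.06 (adjusted p = 0.0516) and passed in 5 of 9 alternatives, with adjusted p from 0.000126 to 0.142 over them. It passed without the SL EpiSC library of day 5, as day 7 alone (6.37, adjusted p = 0.000167), or without that of day 7 (5.18, adjusted p = 0.019).

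The courses were then compared with each other at days 5 and 7, in a model of 11 libraries with course, medium and day. The 4 Neural libraries of days 5 and 7, from both media, thus serve as the replicates of a course. The p-values measure the spread left between libraries of different medium and day once the average effects of both are fitted. Against EBs, 4 of the 8 genes were higher in the Neural course and none was lower, where 33.5% of 15466 genes were called and 17.9% were higher. They were Neurog2 (log2 difference 5.61 ± 0.99, adjusted p = 0.00414), Nhlh1 (5.4 ± 1.06, adjusted p = 0.00621), Dcx (4.92 ± 0.98, adjusted p = 0.00649) and Tubb3 (2.87 ± 0.58, adjusted p = 0.00685), which correspond to 48.7-, 42.1-, 30.2- and 7.32-fold. The EB libraries of days 5 and 7 held 20 reads of Neurog2 and 15 of Nhlh1 in all. The folds of these 2 genes thus rest on EB levels near the floor, and both passed the filter on low counts through libraries of other courses. For the 4 called genes every Neural library was above every EB library, as for 11.5% of all genes. Their calls held in all 17 alternatives, leaving out any of the 11 libraries included.

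The remaining 4 genes did not pass against EBs, namely Elavl3 (1.98 ± 0.98, adjusted p = 0.148), Map2 (1.22 ± 0.67, adjusted p = 0.186), Neurod1 (0.34 ± 0.36, adjusted p = 0.488) and Stmn2 (-0.22 ± 0.38, adjusted p = 0.682). Elavl3 passed in 3 and Map2 in 2 of 17 alternatives. Elavl3 did so without the SL EB library of day 5 (2.82, adjusted p = 0.0394), and both did so with the spread of all 41 libraries (2.44, adjusted p = 4.9e-05, and 1.43, adjusted p = 0.0216). When each day was taken alone in the fit of 41 libraries, chosen after seeing the data, Elavl3 and Map2 were higher in the Neural course at day 7, by 4.66 (adjusted p = 2.1e-05) and 2.98 (adjusted p = 0.00399), and not at day 5, with 0.22 (adjusted p = 0.796) and -0.12 (adjusted p = 0.915). Stmn2 was then lower in the Neural course at day 5, by a log2 difference of -1.01 (adjusted p = 0.0419).

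**Figure D2:**
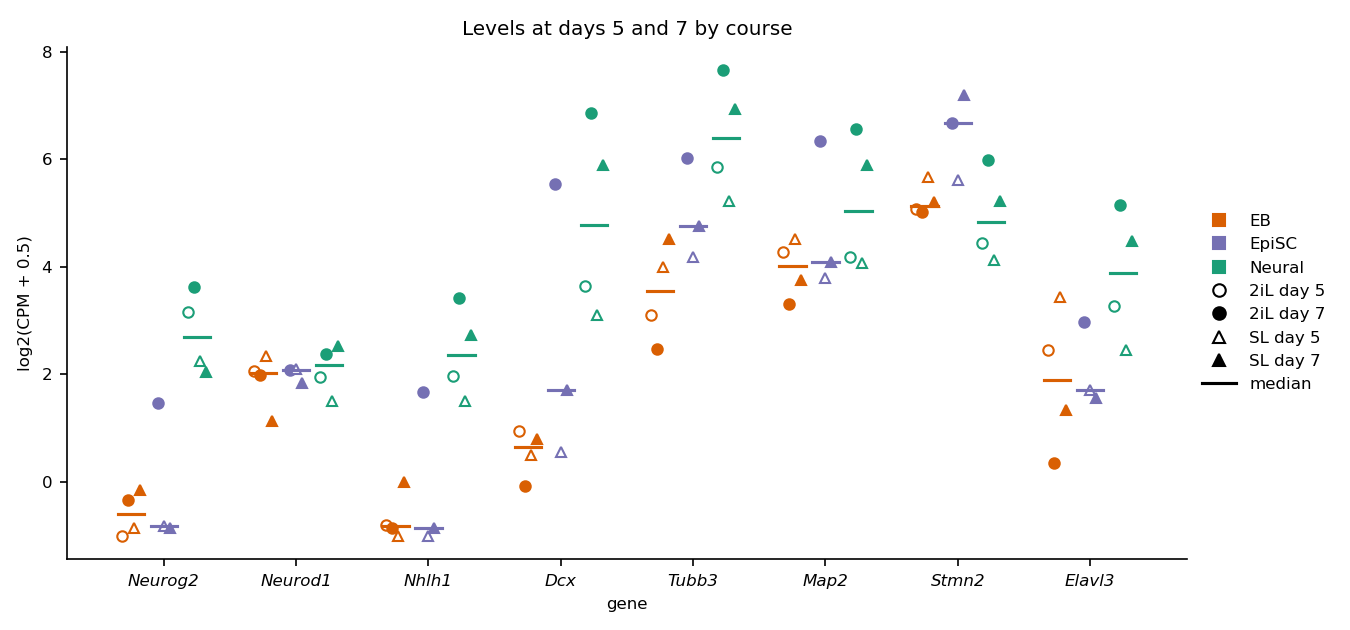
Level of each gene as log2(CPM + 0.5) in the 11 libraries of days 5 and 7, with 1 point per library, grouped by course (colours), medium (circles 2iL, triangles SL) and day (open day 5, filled day 7), and a bar at the median of each course. The Neural points of Neurog2, Nhlh1, Dcx and Tubb3 lie above all EB points, and the single 2iL EpiSC point lies well above the SL ones for Dcx, Map2 and Nhlh1.

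Other cell types moved with this comparison, in which 17.9% of all genes were higher and 15.6% lower. All 6 neural progenitor markers were detected in both courses, and 3 of 6 were higher in the Neural course, where their sum was 323 to 745 CPM against 176 to 314 CPM in EBs. Of the 6 pluripotent or epiblast markers, 5 were lower, with sums of 157 to 468 CPM in the Neural course and 427 to 2980 CPM in EBs. Mesoderm and cardiac markers (3 of 6 lower) summed to 5.91 to 10.4 CPM in the Neural course and 63.1 to 587 CPM in EBs, and Mesp1 was at 0 in all 4 Neural libraries. Endoderm markers were 907 to 2133 CPM in the Neural course, 3 of 6 higher and 1 lower, against 106 to 1315 CPM in EBs, and Cubn, a receptor of visceral endoderm and kidney, made up most of them with 816 to 1783 CPM. Glial markers summed to 2.36 to 5.22 CPM in the Neural course and 5.12 to 8.53 CPM in EBs (1 of 3 tested lower), with S100b at 0 in all 4 libraries and Gfap at 0 in 2 of them. Pancreatic endocrine markers, examined because Neurod1 is also a factor of those cells, were at 0.111 to 0.442 CPM in the Neural course, with Ins2, Iapp and Gcg at 0 in all 4 libraries. Neural crest markers summed to 23.4 to 35.5 CPM in the Neural course and 45.7 to 91.8 CPM in EBs, and 0 of 4 passed the test, while blood markers summed to 3.09 to 6.93 and 1.43 to 27.4 CPM, with 0 of 4 passing. The part of these cell types, and of the greater depth of the EB libraries from 2iL, in the differences was not tested.

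Against the EpiSC course, which differs from the Neural one by the presence of Fgf2 and Activin A, only the bHLH factors Neurog2 and Nhlh1 were higher in the Neural course among the 8 genes (background: 21.2% of genes called, 11% higher). Neurog2 differed by 3.88 ± 0.99 (adjusted p = 0.0268), and its lowest Neural level was above the highest EpiSC level, which was true of 11% of genes. Nhlh1 differed by 3.56 ± 1.06 (adjusted p = 0.0437), with overlapping ranges of 2.34 to 10.2 and 0 to 2.69 CPM. The values of the other genes were 2.34 ± 0.90 for Dcx (adjusted p = 0.0937), 2.17 ± 0.96 for Elavl3 (adjusted p = 0.135), 1.70 ± 0.59 for Tubb3 (adjusted p = 0.0708), 0.57 ± 0.66 for Map2 (adjusted p = 0.566), 0.21 ± 0.39 for Neurod1 (adjusted p = 0.727) and -1.33 ± 0.41 for Stmn2 (adjusted p = 0.0502). The EpiSC library from 2iL of day 7, in which Dcx, Map2, Neurog2 and Nhlh1 were highest for that course, also had the highest sum of neural progenitor markers in it (433 CPM, against 177 and 311 CPM in those from SL). Endoderm markers were higher in the Neural course than in the EpiSC course (6 of 6, 907 to 2133 against 60.3 to 234 CPM). Of the pluripotent or epiblast markers, 3 of 6 were lower. Also higher were 2 of 6 neural progenitor and 1 of 4 blood markers. Lower were 1 of 6 mesoderm and cardiac and 1 of 4 neural crest markers. Of 3 glial markers tested, 1 was higher and 1 lower. The part of these cell types in the differences was not tested.

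The calls of this comparison depended on single libraries. Neurog2 no longer passed without the 2iL Neural library of day 7 (adjusted p = 0.0583), the SL Neural library of day 5 (0.0539) or either SL EpiSC library (day 5, 0.0737 and day 7, 0.0713). Nhlh1 lost its call without any Neural library, either SL EpiSC library or either EB library of day 5, with adjusted p between 0.0588 and 0.107. Dcx passed without the 2iL EpiSC library of day 7, with a difference of 4.03 (adjusted p = 0.0494), and without the 2iL EB library of day 7 (2.5, adjusted p = 0.0297), as did Tubb3 without the latter (1.67, adjusted p = 0.0166). Stmn2 passed as lower without the 2iL EB library of day 7, the 2iL Neural library of day 7 or the SL EB library of day 5 (-1.36, -1.73 and -1.39, with adjusted p of 0.0373, 0.0281 and 0.0278). With medium and day as a block, 5 of the 8 genes passed, and Nhlh1 did not (adjusted p = 0.0523), where 2124 of all 15616 genes were called.

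EBs and EpiSC cultures did not differ in any of the 8 genes with edgeR (0 called, 2 at an unadjusted p under 0.05, and 1 called by DESeq2), while 5.95% of all genes did. The differences (EB minus EpiSC) ran from -2.58 ± 1.05 for Dcx (adjusted p = 0.174) to 0.19 ± 1.04 for Elavl3 (adjusted p = 0.93), and all 8 genes had overlapping ranges. These 3 course comparisons share libraries and are not independent of each other. At day 7 alone, in the fit of 41 libraries, 5 genes were lower in EBs than in EpiSC cultures, namely Dcx (-4.57, adjusted p = 0.000894), Map2 (-2.31, adjusted p = 0.0408), Elavl3 (-2.07, adjusted p = 0.0286), Tubb3 (-1.91, adjusted p = 0.0139) and Stmn2 (-1.87, adjusted p = 0.00243). In that fit 1776 of 16946 genes were called and 991 were lower. From SL, EpiSC and EB libraries of day 7 held 2.78 and 1.24 CPM of Dcx, 16.6 and 13.0 of Map2, 2.47 and 2.03 of Elavl3 and 26.7 and 22.3 of Tubb3. From 2iL the EpiSC library held 45.7, 80.2, 7.33 and 64.7 CPM and the EB library 0.453, 9.37, 0.772 and 5.03 CPM. Stmn2 was at 145 and 36.1 CPM from SL and at 102 and 32.1 CPM from 2iL.

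**Figure D3:**
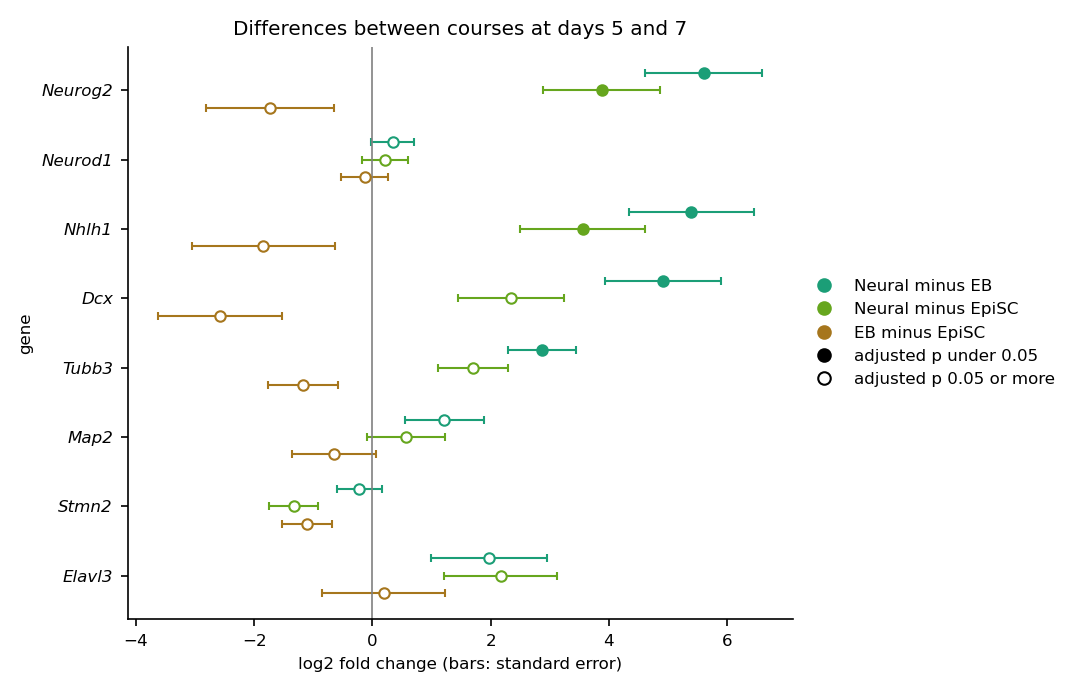
Log2 differences between courses at days 5 and 7 for each gene, from the edgeR model of 11 libraries, with bars of 1 standard error, filled points for an adjusted p under 0.05 and open points otherwise. Filled points occur for Neurog2, Nhlh1, Dcx and Tubb3 in Neural minus EB and for Neurog2 and Nhlh1 in Neural minus EpiSC, and Stmn2 is the only gene to the left of 0 in all 3 comparisons.

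The question of whether the medium of the ESCs still mattered was asked at 2 stages. At days 2.5 and 3, over 12 libraries in a model with course and day, 5 of the 8 genes passed the filter on low counts, and Dcx, Neurog2 and Nhlh1 did not. Elavl3 was lower in cultures from 2iL, by a log2 difference of -1.01 ± 0.20 (adjusted p = 0.00542), and Tubb3 by -0.37 ± 0.10 (adjusted p = 0.0258), where 20.5% of 14862 genes were called and 9.47% were lower. Elavl3 was lower from 2iL in each of the 6 pairs of the same course and day, from a ratio of 0.310 (95% exact interval 0.215 to 0.441) in EpiSC cultures of day 3 to 0.807 (0.581 to 1.12) in Neural cultures of day 3, and it was also lower at day 0, at 0.399 to 1.22 CPM in 2iL and 4.0 CPM in SL. Tubb3 at day 0 stood the other way, above the SL library in all 3 libraries of 2iL. Its difference at days 2.5 and 3 was small, and it did not pass without the 2iL EB (adjusted p = 0.0587) or 2iL EpiSC (0.0629) library of day 2.5, the SL EB (0.0542), SL EpiSC (0.0575) or SL Neural (0.0561) library of day 2.5, or the SL EB library of day 3 (0.0614). Map2 (-0.48 ± 0.19, adjusted p = 0.106) passed without the 2iL EB library of day 2.5 (-0.60, adjusted p = 0.0484).

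At days 5 and 7 none of the 8 genes differed by medium (0 at an unadjusted p under 0.05, 0 called by DESeq2), and only 0.123% of all genes did. The fitted difference (2iL minus SL) was 1.53 ± 0.73 for Dcx (adjusted p = 0.489), 1.39 ± 0.77 for Neurog2 (adjusted p = 0.542) and 1.03 ± 0.84 for Nhlh1 (adjusted p = 0.679), so differences of that size cannot be shown or dismissed with these libraries. Within the Neural course, 1 library from 2iL was set against 1 from SL at each day. That from 2iL was higher at days 5 and 7 for Neurog2 (ratios 1.99 and 3.26), Dcx (1.48 and 1.97), Tubb3 (1.54 and 1.66) and Elavl3 (1.85 and 1.61). So it was for Nhlh1 (1.47, interval 0.974 to 2.23, and 1.66), Map2 (1.09, 0.922 to 1.28, and 1.60) and Stmn2 (1.25 and 1.70). Neurod1 was higher on day 5 but not day 7 (1.45, 0.957 to 2.20, and 0.893, 0.642 to 1.24). The share of all genes higher from 2iL at both days was not determined. In EBs of day 7 the ratio was below 1 for Nhlh1 (0.107, from 2 reads in the 2iL library, interval 0.0114 to 0.504), Tubb3 (0.226) and Dcx (0.365). It was also below 1 for Elavl3 (0.380), Map2 (0.721), Neurog2 (0.738, 0.270 to 2.11) and Stmn2 (0.887), and was 2.05 for Neurod1. In EBs of day 5 the ratio was below 1 for Tubb3 (0.523), Elavl3 (0.484), Stmn2 (0.661), Map2 (0.836) and Neurod1 (0.808, 0.614 to 1.07). For Dcx it was 1.55 (0.888 to 2.84), while Nhlh1 had 3 reads from 2iL and 0 from SL and Neurog2 had 0 and 1. The difference between Neural cultures and EBs in the effect of medium was itself tested and was not past the threshold for any of the 8 genes (0 called, 1 at an unadjusted p under 0.05, 0 by DESeq2), with the smallest adjusted p, 0.844, for Tubb3 (2.10 ± 0.79) and Nhlh1 (2.22 ± 1.20). Of all 16028 genes in that fit, 0 were called with edgeR, 917 were at an unadjusted p under 0.05 and DESeq2 called 18.

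**Figure D4:**
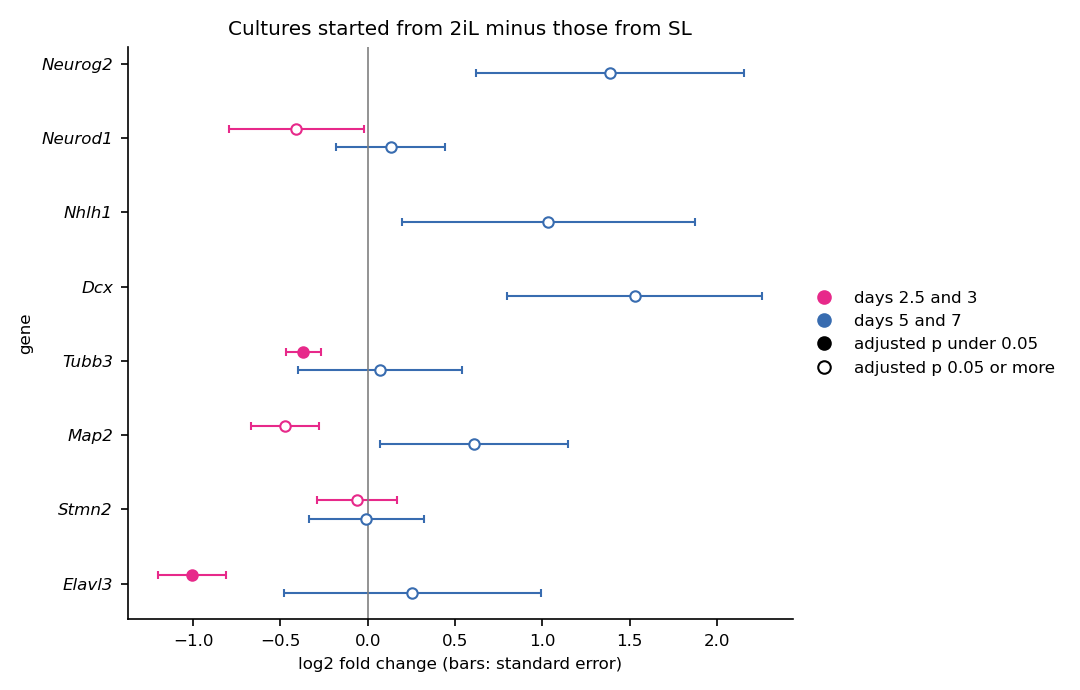
Log2 difference between cultures from 2iL and from SL for each gene at days 2.5 and 3 and at days 5 and 7, from edgeR, with bars of 1 standard error and filled points for an adjusted p under 0.05. Filled points are those of Elavl3 and Tubb3 at days 2.5 and 3, both to the left of 0, and Dcx, Neurog2 and Nhlh1 have a point at days 5 and 7 alone because they did not pass the filter on low counts at days 2.5 and 3.

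The 8 genes were set beside lists of genes with related roles. Of the 28 proneural and neurogenic transcription factors listed, 23 could be tested in Neural against EB at days 5 and 7, and 18 were higher and 1 lower (of all 15466 genes 17.9% were higher and 15.6% lower), with a median log2 difference of 3.88 where the median of all genes was close to 0. Among the widest differences were those of Nhlh2, the close relative of Nhlh1 (7.27 ± 1.30, adjusted p = 0.00426), and the bHLH factor Neurod4 (6.28 ± 1.09, adjusted p = 0.00386). Neurod4 was at 11.2 to 32.1 CPM in Neural cultures and at 0.0502 to 1.49 CPM in EBs. Genes near 0 in EBs, such as Nhlh2 (0 to 0.248 CPM), passed the filter on low counts through libraries of other courses. The share of proneural factors that were higher is therefore not directly comparable with that of all genes. The lists were also chosen with earlier results of these data known. Of 28 genes of the neuronal cytoskeleton, adhesion and RNA binding, 12 were higher and 1 lower (median 0.93, beside the same 17.9% and 15.6% of all genes), led by the axon guidance receptor Robo2 (4.24 ± 0.77, adjusted p = 0.00458), the Elavl3 relative Elavl4 (3.83 ± 0.30, adjusted p = 0.000454) and the netrin receptor Dcc (3.42 ± 0.67, adjusted p = 0.00628).

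Of the 24 genes of the synapse and of excitability, 2 were higher and 4 lower in the Neural course than in EBs (median 0.34), where 17.9% and 15.6% of all genes were. The difference between lists was not tested. The sodium channel gene Scn3a (3.36 ± 0.94, adjusted p = 0.0236) and the granule protein gene Chgb (2.79 ± 0.53, adjusted p = 0.00549) were higher and the synaptic vesicle gene Sv2a was lower (-2.35 ± 0.37, adjusted p = 0.00283). The call of Scn3a was lost without any 1 of 5 libraries, namely the EB libraries of 2iL days 5 and 7 and SL day 7 and the Neural libraries of day 7. Of 14 repressors of neuronal genes or of differentiation, 5 were higher and 1 lower (median 0.44, beside 17.9% and 15.6% of all genes), among them the Notch effector Hes5 (4.65 ± 0.89, adjusted p = 0.00569) and the bHLH inhibitors Id4 (3.05 ± 0.36, adjusted p = 0.0011) and Id2 (1.56 ± 0.43, adjusted p = 0.0221). The call of Id2 was lost without any 1 of the 4 libraries of day 5 in these courses.

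Over time in the Neural course, where 36.9% of all genes rose and 34% fell, 17 of 25 proneural factors tested rose and 1 fell (median 3.15). Nhlh2, St18 and Neurod4 led, with late levels of 2.18 to 15.8, 2.40 to 19.5 and 11.2 to 32.1 CPM against at most 0.0586, 0.117 and 0.469 CPM at days 1 to 2. Of the 28 cytoskeletal, adhesion and RNA-binding genes 21 rose and 4 fell (median 1.72), of the 24 synaptic genes 10 rose and 5 fell (median 0.36), and of the 14 repressors 9 rose and 3 fell (median 1.73), against a median of 0.02 over all genes. The synaptic count is near the share of all genes that rose. Genes near 0 at days 1 to 2, such as Nhlh2, passed the filter on low counts through other libraries. The share of proneural factors that rose is therefore not directly comparable with that of all genes. Robo2 (8.08 ± 0.45, adjusted p = 1.2e-12), Celf3 (7.08 ± 0.75, adjusted p = 2.7e-08) and Stmn4 (5.46 ± 1.0, adjusted p = 0.00011) led the second list. Their late levels were 34.1 to 62.0, 1.62 to 12.6 and 0.334 to 3.35 CPM, against at most 0.261, 0.216 and 0.104 CPM at days 1 to 2. Chgb (4.84 ± 0.53, adjusted p = 3.9e-08), Snap25 of the vesicle fusion complex (4.03 ± 0.70, adjusted p = 2.0e-05) and the axonal motor Kif1a (3.24 ± 0.44, adjusted p = 6.7e-07) led the third. Hes5 (8.54 ± 0.78, adjusted p = 4.5e-09), Id1 (4.29 ± 0.33, adjusted p = 9.7e-11) and Hey1 (4.24 ± 0.40, adjusted p = 3.1e-09) led the repressors.

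**Figure D5:**
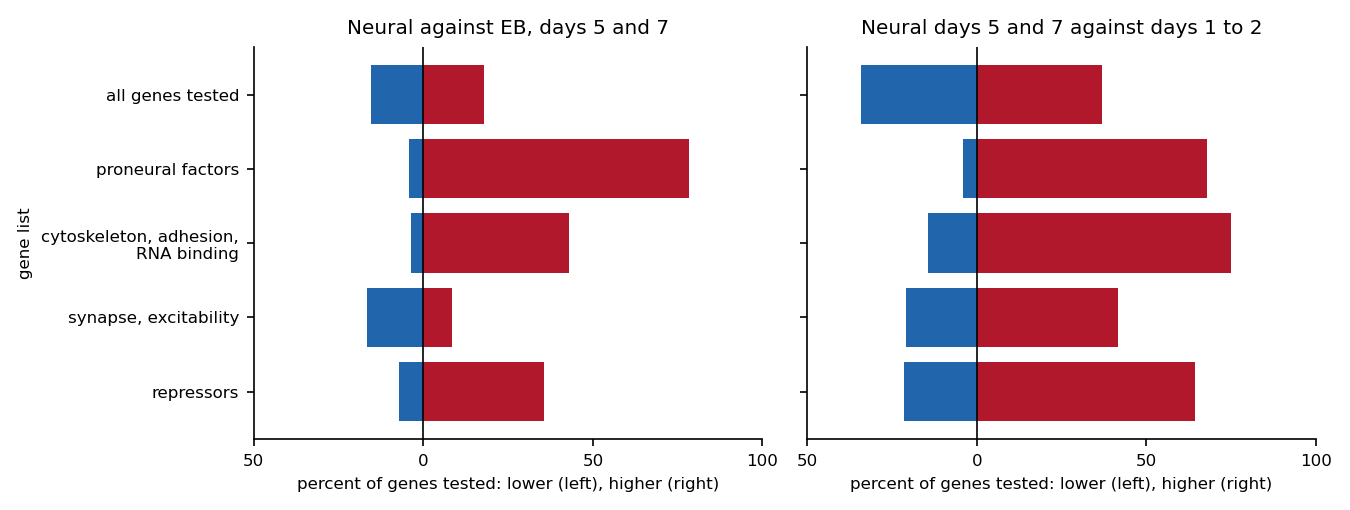
Share of the tested genes of each list that were higher (right, red) or lower (left, blue) at an adjusted p under 0.05, for Neural against EB at days 5 and 7 and for Neural days 5 and 7 against days 1 to 2, with all genes tested as the top bar. In the left panel 18 of 23 proneural factors are higher, while 2 of 24 synaptic genes are higher and 4 are lower. The lists were chosen with earlier results of these data known, and genes low in every library are left out of the shares.

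Likeness between genes was described by Pearson's r of log2(CPM + 0.5) over the 45 libraries, which are not independent, since libraries of a course share their culture and day 0 levels are shared. With the mean of the other 7 genes, r was 0.87 for Dcx, 0.85 for Nhlh1, 0.81 for Neurog2, 0.69 for Map2, 0.59 for Elavl3, 0.49 for Tubb3, 0.21 for Neurod1 and -0.24 for Stmn2. The 10 genes most like the mean of all 8, of 15328 with at least 1 CPM in 3 or more libraries, were Scg3 (r = 0.94), Thsd7b (0.93), 3110035E14Rik (0.93), Gdap1 (0.92), Rab3c (0.92), Myt1 (0.92), Nhlh2 (0.92), Neurod4 (0.91), St18 (0.91) and Clvs1 (0.91). Scg3, a protein of secretory granules, was at 11.1 and 16.6 CPM in the Neural libraries of day 7 and at most 0.274 CPM at day 0. Myt1, a zinc finger factor of neuronal differentiation, was at 15.3 and 20.1 CPM and at most 0.0549 CPM. Nhlh2, Neurod4, St18 and Myt1 also belong to the list of proneural factors.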

How the data were processed

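The 45 libraries were made from total RNA depleted of ribosomal RNA with a strand-specific kit. The authors trimmed reads with TrimGalore, aligned them with TopHat2 to the GRCm38 genome using the annotation of Ensembl 82, and deposited raw counts per gene and strand from featureCounts, without normalization. The 435 tRNA rows without a symbol held at most 0.0014% of counts.

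CPM was computed over each library total. TMM factors, the filter filterByExpr, edgeR's quasi-likelihood test (edgeR 4.0.16, R 4.3.3) and Benjamini-Hochberg adjustment ran over all genes, with a threshold of 0.05. Standard errors given with log2 differences were derived from that test, as the absolute difference over the square root of the F statistic. They are therefore not independent of the p-values. DESeq2 1.42.0 was an alternative. The libraries carry no replicate number, so media and days stood as replicates, and nothing in the labels says that they came from separate cultures. Gene positions are from GENCODE M21. The scripts were tested on simulated data.

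The 8 genes were given for this work, and the lists were chosen, with earlier results of these data known. Named from each list were the 3 genes with the largest differences past the threshold in Neural against EB and in Neural late against early, and the 10 genes most like the mean of the 8. A gene that this rule names is not reported here.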

Additional observations from a re-analysis of the deposited data

Results flagged for a closer look

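Of 72 pairs of a gene and a group of 4 to 6 libraries examined for a lone extreme value, 6 were found, all in groups of 6 libraries. Among like replicates chance gives about 1 in 20, but these groups mix courses, media or days, so that rate does not apply to them. Map2 was at 59.2 CPM in the SL Neural library of day 7, against 13.0 to 22.4 CPM in the other 5 SL libraries of days 5 and 7. Nhlh1 was at 0.505 CPM in the SL Neural library of day 3, against 0 to 0.123 CPM in the other 5 SL libraries of days 2.5 and 3. Elavl3 was at 9.17 CPM in the SL EB library of day 2, against 1.74 to 3.16 CPM in the other EB libraries of days 1 to 2. Map2 was at 0.725 CPM in the 2iL EB library of day 1, against 2.97 to 5.69 CPM in the other EB libraries of those days. The last 2 are single reads, of Nhlh1 in the SL EB library of day 2 (0.0270 CPM) and of Neurog2 in the 2iL EpiSC library of day 2 (0.0599 CPM), where the other 5 libraries of the course at days 1 to 2 held none.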

How the results depend on the processing

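Of the 20 calls made on the 8 genes over all comparisons, 19 kept their sign and 14 stayed past the threshold in every alternative run, among them the 4 of Neural against EB and the 7 of Neural late against early. Leaving out 1 library at a time gave 4 to 5 genes called for Neural against EB (4 with all libraries), 0 to 5 for Neural against EpiSC (2), 0 to 0 for EB against EpiSC (0), 1 to 2 for medium at days 2.5 and 3 (2), 2 to 4 for EB (3) and 2 to 4 for EpiSC (2) late against early, and the cause of these moves was not tested. Over all genes the same runs called 3507 to 5344, 1497 to 3441, 266 to 880, 1933 to 3298, 10280 to 11199 and 9028 to 10229. The EpiSC run over time without the SL library of day 5 compares day 7 alone with days 1 to 2. For Neural against EB, 6 genes were called with the spread of 41 libraries and 6 at day 7 alone, where 7506 and 4962 of all 16946 genes were called. For Neural against EpiSC, 4 genes were called by DESeq2, 6 with the spread of 41 libraries, 6 at day 7 alone and 5 with medium and day as a block. Of all genes, 4296 of 15466, 5456 of 16946, 4671 of 16946 and 2124 of 15616 were called in these settings. For EB against EpiSC, 1 was called by DESeq2, 3 with the spread of 41 libraries and 5 at day 7 alone, where Elavl3 changed sign (-2.07). Of all genes, 2086 of 15466, 3404 of 16946 and 1776 of 16946 were called there. For medium at days 2.5 and 3, 1 was called with the spread of 41 libraries (3118 of all 16946 genes). For EpiSC late against early, 4 were called with days grouped into stages (9552 of all 16165 genes). With days 2.5 and 3 as the early days, Stmn2 changed sign in EBs (1.36) and in EpiSC cultures (0.81, adjusted p = 0.0354). The block, which pairs libraries of 1 medium and day or of 1 course and day, left 4 genes called for Neural against EB, 0 for EB against EpiSC, 0 for medium at days 5 and 7 and 2 at days 2.5 and 3, and leaving the medium out of the model over time left 7, 4 and 2 in the Neural, EB and EpiSC courses. Of all genes, the block called 3549 of 15186, 30 of 15715, 38 of 16028 and 2634 of 15196. The models without medium called 11181, 10410 and 8791 of 16946. Day 7 or day 5 alone, the grouped days and, for medium at days 5 and 7, a separate effect of medium in each stage of the 41 libraries were chosen after seeing the data.

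At the median depth 3 reads are 0.165 CPM, and Neurog2 and Nhlh1 were at or below 0.233 CPM in every library up to day 2.5. That highest value, above the floor, was Nhlh1 in a day 0 library from 2iL. At day 3 the SL Neural library held 6 reads of Neurog2 (0.379 CPM) and 8 of Nhlh1 (0.505 CPM), where 3 reads are 0.189 CPM. A first day of expression was not determined, since levels this near the floor rest on few reads.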
